A study of Mus musculus with 6 samples.

Results

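The Notch pathway was examined across 37 genes, a list of its receptors, ligands, target genes, modifying enzymes, cleavage enzymes and nuclear partners, out of 55487 genes counted. The members were taken by gene name from the rows of the count table, and all 37 were found and passed the filter on low counts. RNA was sequenced in bulk from mouse retinas at embryonic day 16.5 of the C57BL/6 strain, with both retinas of an embryo combined. There were 3 libraries labelled Foxp1 cKO, from embryos with floxed alleles of Foxp1 and a Six3-Cre transgene, and 3 labelled control, from embryos with the floxed alleles and no Cre, so all animals share the floxed alleles. Six3-Cre is driven by regulatory sequence of Six3 and acts in the developing retina. All embryos came from a single litter and each library is a separate animal. The comparison addresses how retinal gene expression differs when Foxp1, which encodes a forkhead protein that binds DNA, is deleted.

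Notch signalling passes between touching cells. A Delta or Jagged ligand on a neighbouring cell binds a Notch receptor, which is then cleaved by an Adam protease outside the membrane and by gamma-secretase within it. The freed intracellular part enters the nucleus, joins the DNA-binding protein Rbpj and a Mastermind-like protein, and switches on repressors of the Hes and Hey families. In the embryonic retina this pathway is known for keeping progenitor cells dividing and for holding back neuron formation.

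The labels have to be read with care. Expression is given as CPM, a gene's count scaled by the TMM-adjusted total of its library. Foxp1, the targeted gene, was at 72.4, 75.5 and 68.8 CPM in libraries 1, 2 and 3 that carry the cKO label, against 50.8, 41.1 and 46.2 CPM in libraries 1, 2 and 3 that carry the control label. The targeted gene is thus higher in all 3 libraries that the labels call knockout (log2 fold change 0.65, standard error 0.07, edgeR adjusted p 4.63e-05), and the count covers the whole gene, not the deleted stretch alone. Xist and 4 Y-linked genes matched the labelled sex in 4 of 6 libraries, and in 6 of 6 when the labelled sexes were exchanged between the groups number for number. The authors' deposited table of cKO against control gives Foxp1 a log2 fold change of -0.60. Because Foxp1 itself goes against the labels, each direction below holds for the labels only, and libraries are called cKO-labelled and control-labelled. Depth was 23707761 to 25714620 counts per library, and the retinal progenitor marker Pax6 (634 to 680 CPM) was abundant in every library.

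None of the 37 Notch pathway genes passed an edgeR adjusted p of 0.05 between the cKO-labelled and control-labelled libraries, where 0.781% of the 17275 genes tested did (0.295% higher and 0.486% lower). Other tools and other sets of libraries called a few. DESeq2 called Hes6 and Heyl, where it called 9.61% of the 5887 genes to which it gave an adjusted p, and limma-voom called no member and 0.0753% of all genes. Some members, among them Psenen and Notch4, had no DESeq2 adjusted p. The fit without control-labelled library 3 called Notch1 and Notch2, with 4.40% of all genes called there. The fit without cKO-labelled library 2 called Heyl, with 0.107% of all genes called there. At an unadjusted edgeR p under 0.05 there were 11 members (29.7%), against 16.5% of all genes tested. Of these 11, 5 had a positive log2 fold change (7.83% of all genes) and 6 a negative one (8.64% of all genes). The members' log2 fold changes ran from -0.43 to 0.28 with a median of -0.025, and the median over all genes tested was 0.001. Of the members 14 had positive and 23 had negative values, against 50.1% and 49.9% of all genes tested. A difference of at least 10% was fitted for 11 members (29.7%), a smaller share than the 35.4% of all genes tested.

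**Figure D1:**
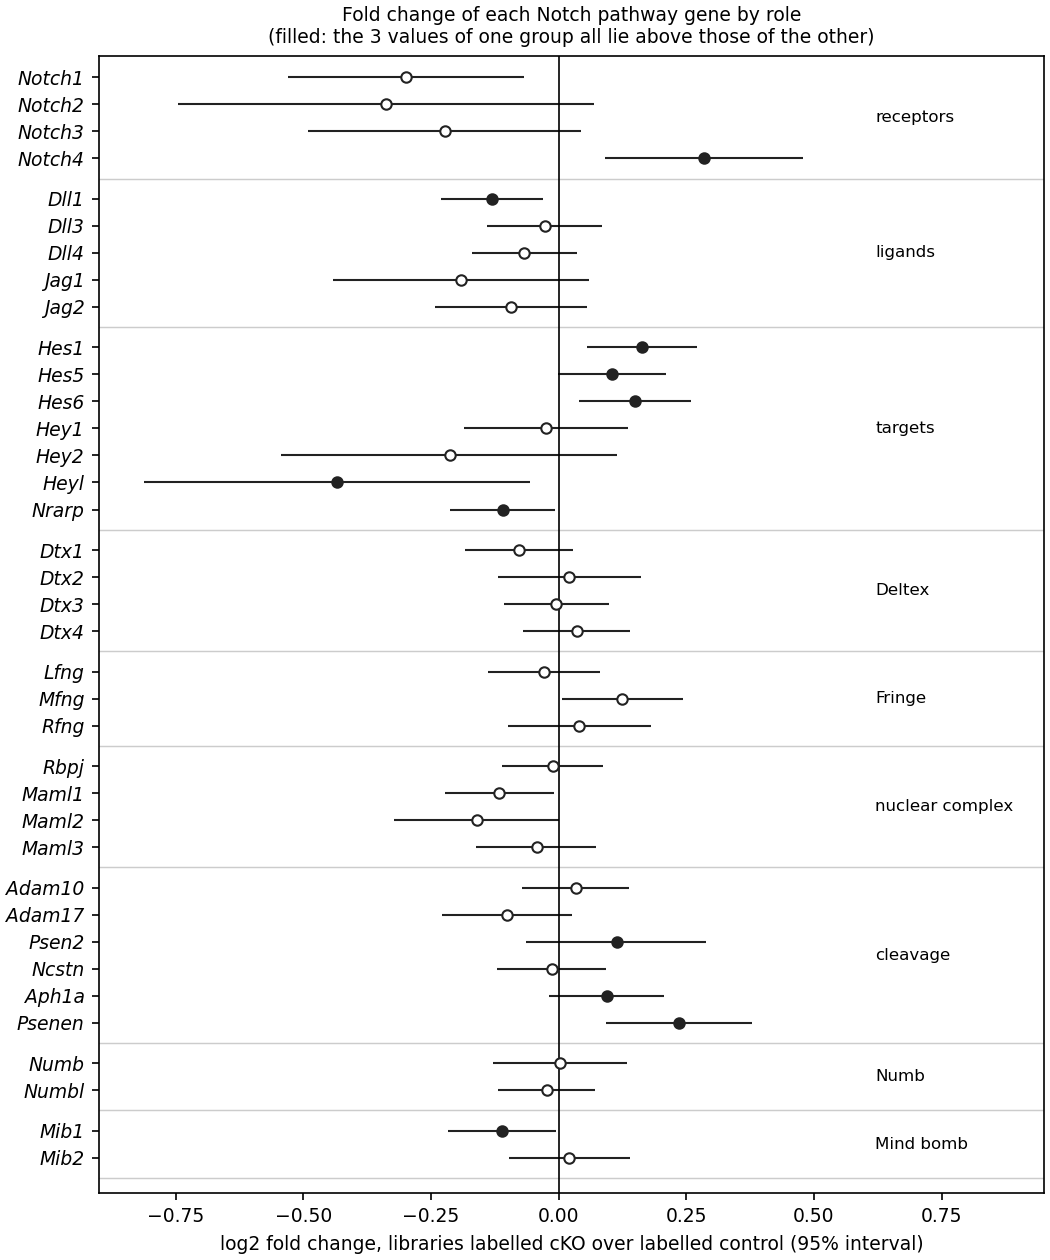
Each row is a Notch pathway gene, grouped by role, with its log2 fold change (cKO-labelled over control-labelled libraries) and 95% interval from the edgeR fit. Filled points mark the 11 genes whose 3 values in one group all lie above those of the other; Notch1 to Notch3 lie below 0 and Notch4 lies above it, and none passed the adjusted test.

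The most abundant members by CPM per kilobase of exon were target genes. Hes5 stood at 292 CPM per kilobase of exon in cKO-labelled libraries and 272 in control-labelled ones, followed by Hes6 at 235 and 212. Dtx4, a Deltex family ubiquitin ligase, was next at 96.1 and 93.8, ahead of Hes1 at 77.4 and 69.1 and Nrarp at 64.7 and 69.8. Notch1 was the most abundant receptor on this scale, with 48.0 CPM per kilobase in cKO-labelled and 59.0 in control-labelled libraries. At the low end were Notch4 (1.80 and 1.47), Jag1 (1.28 and 1.46) and Hey2 (0.844 and 0.980), and Hey2 had as few as 86 counts in a library. The order therefore spans a wide range, from Hes5 to Hey2, and the differences between the labelled groups are small beside it.

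**Figure D2:**
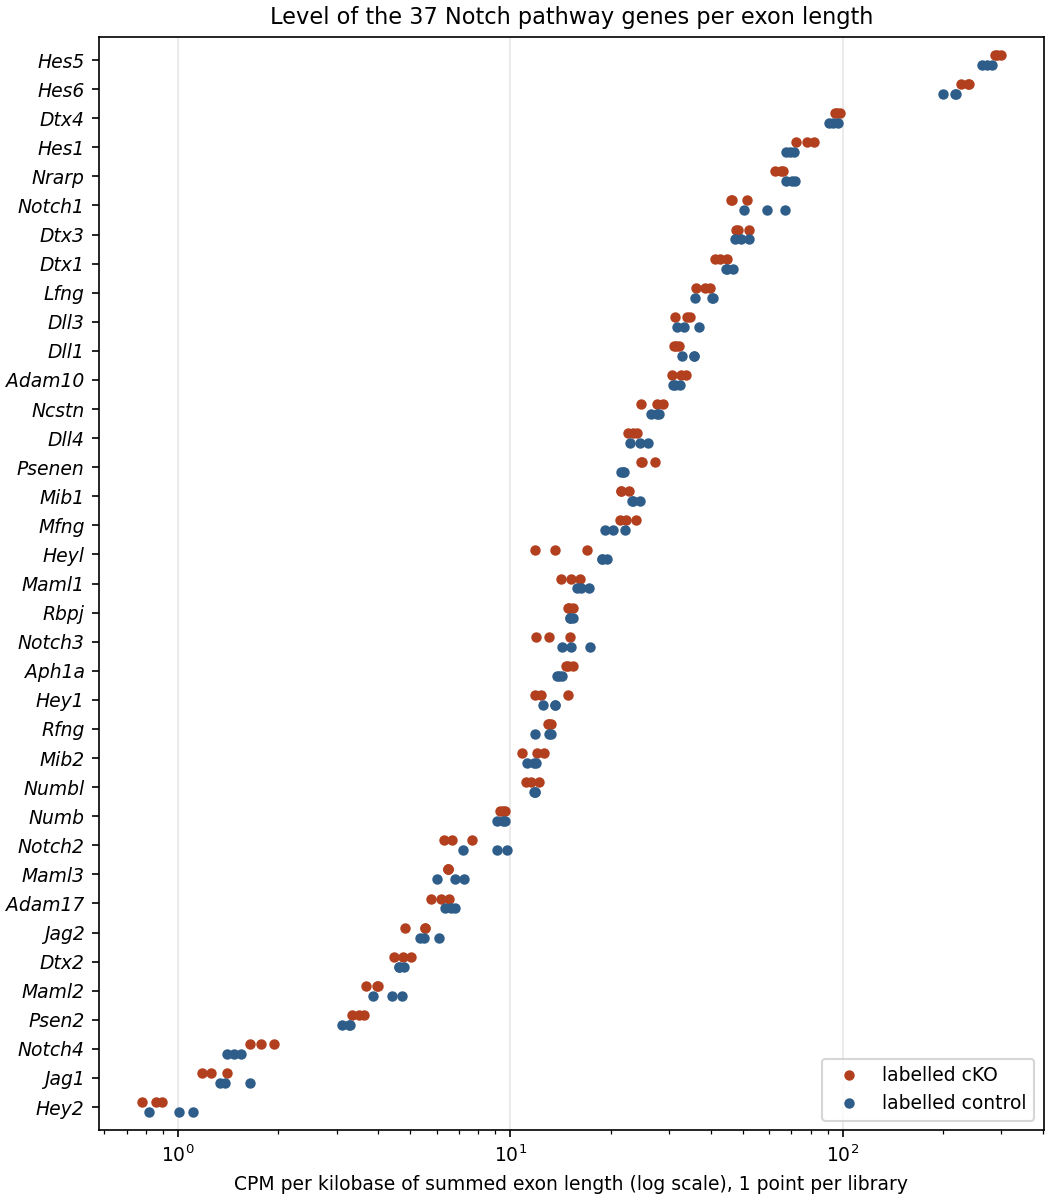
Level of the 37 genes in CPM per kilobase of summed exon length on a log axis, with a point for each library (cKO-labelled above, control-labelled below, within each row). Hes5 and Hes6 lead at over 200 CPM per kilobase and Hey2 is lowest at about 1, and the groups lie close together in every row.

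Among the receptors, Notch1, Notch2 and Notch3 had lower means in the cKO-labelled libraries and Notch4 a higher one. Notch1 (ENSMUSG00000026923, chromosome 2, 26457903 to 26516663, minus strand, mm10) is the main receptor of retinal progenitors. It had 731, 655 and 661 CPM in cKO-labelled libraries 1, 2 and 3, against 956, 843 and 718 CPM in control-labelled libraries 1, 2 and 3. The groups overlap, because control-labelled library 3 lies below cKO-labelled library 1. The means were 682 ± 42.4 CPM in cKO-labelled and 839 ± 119 CPM in control-labelled libraries (SD, n = 3 each), and the log2 fold change was -0.30 (95% interval -0.53 to -0.07, edgeR adjusted p 0.194). Without control-labelled library 3 the log2 fold change was -0.40 and the edgeR adjusted p 0.00143. Over all fits with a library left out, the log2 fold change of Notch1 ran from -0.40 to -0.19. The edgeR adjusted p ran from 0.00143 to 0.514.

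Notch2 (chromosome 3, 98013527 to 98150361, plus strand) had 82.8, 68.2 and 71.7 CPM in the cKO-labelled libraries, against 105, 98.5 and 77.4 CPM in the control-labelled ones. As for Notch1, control-labelled library 3 lay within the other group's range. The log2 fold change of Notch2 was -0.34 (95% interval -0.75 to 0.07, edgeR adjusted p 0.384), and without control-labelled library 3 it was -0.46 (edgeR adjusted p 0.00218). Over all fits with a library left out it ran from -0.46 to -0.24, with an edgeR adjusted p from 0.00218 to 0.715. Notch3 (chromosome 17, 32120820 to 32166852, minus strand), a receptor also known from the smooth muscle and pericytes of vessels, had 122, 106 and 96.8 CPM in the cKO-labelled libraries, against 140, 116 and 123 CPM in the control-labelled ones. The groups overlap through cKO-labelled library 1 and control-labelled library 2, and the log2 fold change was -0.22 (95% interval -0.49 to 0.04, edgeR adjusted p 0.388). Vessel wall (mural) markers were low: of 8 in the list, Pdgfrb was highest at 18.9 to 22.5 CPM in cKO-labelled and 23.5 to 23.8 CPM in control-labelled libraries, and Rgs5 stayed at or under 0.783 CPM. The summed mural level was 24.7 to 31.9 CPM in cKO-labelled and 28.5 to 32.0 CPM in control-labelled libraries, no marker was at 0 in all libraries, and its part in the Notch3 values was not tested.

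Notch4 (chromosome 17, 34564268 to 34588503, plus strand), known as the receptor of vascular endothelium, had 15.7, 13.3 and 14.3 CPM in cKO-labelled libraries, against 12.5, 11.9 and 11.3 CPM in control-labelled ones. Every cKO-labelled value lies above every control-labelled one, and the log2 fold change was 0.28 (95% interval 0.09 to 0.48, edgeR adjusted p 0.126). The endothelial list of 10 markers was uneven, with no marker at 0 in all libraries. Pecam1 ranged from 0.237 to 1.13 CPM in cKO-labelled and from 0.544 to 0.632 CPM in control-labelled libraries, and Cdh5 from 0.249 to 0.939 CPM in cKO-labelled and from 0.403 to 0.544 CPM in control-labelled ones. Cldn5, at a level near that of Notch4, was at 12.8 to 13.7 CPM in cKO-labelled and 13.9 to 16.8 CPM in control-labelled libraries (log2 fold change -0.20, edgeR adjusted p 0.266). The sum over the list was 301 to 311 CPM in cKO-labelled and 332 to 357 CPM in control-labelled libraries, and Kdr made up most of it. Kdr, a receptor of vascular growth factor that retinal progenitors also express, was at 283 to 291 CPM in cKO-labelled and 311 to 335 CPM in control-labelled libraries. Of the 6 markers tested, 4 had positive log2 fold changes, namely Pecam1 (0.08), Cdh5 (0.20), Esam (0.25) and Flt1 (0.07). Pecam1, Cdh5 and Esam had only 6 to 29, 6 to 24 and 3 to 15 counts per library. Their standard errors of 0.46, 0.46 and 0.53 exceed their fold changes, so their signs are uncertain. The other 2 markers, Cldn5 and Kdr, had negative log2 fold changes, and none of the 6 passed the edgeR test. The part of endothelial cells in the Notch4 values was not tested. In bulk RNA fewer cells of a type and less RNA per cell cannot be told apart.

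All 5 ligands had negative log2 fold changes, from -0.19 to -0.03, where 49.9% of all genes tested did, and none passed the test. Dll1, the Delta ligand of newly forming neurons (chromosome 17, 15367354 to 15376872, minus strand), had 136, 133 and 131 CPM in cKO-labelled libraries, against 150, 138 and 150 CPM in control-labelled ones. The groups are apart by a narrow gap, between cKO-labelled library 1 and control-labelled library 2, with a log2 fold change of -0.13 (95% interval -0.23 to -0.03, edgeR adjusted p 0.167). Dll4, a Delta ligand of newborn neurons in the retina and of tip cells in vessels, had 86.7, 90.3 and 92.3 CPM in cKO-labelled libraries, against 99.7, 88.2 and 94.2 CPM in control-labelled ones, and the groups overlap (log2 fold change -0.07, edgeR adjusted p 0.541). Dll3, a ligand that acts inside the cell that makes it, was at -0.03 (edgeR adjusted p 0.861) and Jag2 at -0.09 (edgeR adjusted p 0.565). Jag1, the Jagged ligand of lens and ciliary margin, had 8.18, 6.86 and 7.31 CPM in cKO-labelled libraries, against 9.62, 7.82 and 8.09 CPM in control-labelled ones (log2 fold change -0.19, edgeR adjusted p 0.467). The summed level of 12 lens markers, in which Cryaa was highest, was 50.7, 16.3 and 219 CPM in cKO-labelled libraries 1, 2 and 3, against 55.1, 219 and 803 CPM in control-labelled libraries 1, 2 and 3. The part of lens tissue in the Jag1 values was not tested.

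No target gene passed the edgeR test, and the groups were apart for 5 of the 7. Hes1, Hes5 and Hes6 had values that were higher in every cKO-labelled library than in any control-labelled one, whereas Heyl and Nrarp were lower in every one. Over all members the groups were apart for 11 (29.7%), against 20.1% of all genes tested. They were apart in the higher direction for 7 (18.9%) and in the lower direction for 4 (10.8%), against 10.8% and 9.30% of all genes. Hes1 (chromosome 16, 30064384 to 30067796, plus strand), a repressor that keeps progenitors undifferentiated, had 167, 159 and 147 CPM in cKO-labelled libraries, against 137, 141 and 145 CPM in control-labelled ones. The closest values, in cKO-labelled library 3 and control-labelled library 3, nearly meet, and the log2 fold change was 0.16 (95% interval 0.06 to 0.27, edgeR adjusted p 0.111).

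Hes5 (chromosome 4, 154960923 to 154962371, plus strand), the other main Notch effector of retinal progenitors, had 396, 407 and 391 CPM in cKO-labelled libraries, against 371, 358 and 382 CPM in control-labelled ones. Its log2 fold change was 0.10 (95% interval -0.002 to 0.21, edgeR adjusted p 0.311). Hes6 (chromosome 1, 91411483 to 91414038, minus strand), which is made in cells leaving the progenitor state and opposes Hes1, had 411, 434 and 430 CPM in cKO-labelled libraries, against 362, 395 and 393 CPM in control-labelled ones. The log2 fold change of Hes6 was 0.15 (95% interval 0.04 to 0.26, edgeR adjusted p 0.150), and DESeq2 called it at an adjusted p of 0.041.

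Heyl (chromosome 4, 123233556 to 123249875, plus strand), a Hey family repressor, showed the largest fold change of the 37 members. It had 60.7, 86.8 and 69.6 CPM in cKO-labelled libraries, against 96.3, 96.5 and 100 CPM in control-labelled ones. The control-labelled values are tight and the cKO-labelled ones spread widely, all below them, with means of 72.4 ± 13.3 CPM in cKO-labelled and 97.7 ± 2.25 CPM in control-labelled libraries (SD, n = 3 each). The log2 fold change was -0.43 (95% interval -0.81 to -0.06, edgeR adjusted p 0.250). It was -0.58 (edgeR adjusted p 2.12e-05) without cKO-labelled library 2 and -0.32 (edgeR adjusted p 0.0597) without cKO-labelled library 1. Over all fits with a library left out, the edgeR adjusted p of Heyl ran from 2.12e-05 to 0.573. DESeq2 gave an adjusted p of 0.0461.

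Nrarp (chromosome 2, 25180758 to 25183339, plus strand), a target that feeds back on Notch by speeding the loss of its intracellular part, had 171, 161 and 168 CPM in cKO-labelled libraries, against 185, 174 and 182 CPM in control-labelled ones. That is a log2 fold change of -0.11 (95% interval -0.21 to -0.01, edgeR adjusted p 0.259). Hey1 was at -0.03 (edgeR adjusted p 0.920) and Hey2 at -0.21 (edgeR adjusted p 0.550), with overlapping groups for both. Genes on the opposite strand cover 79.4% of the exon length of Nrarp, 31.8% of that of Hes5 and 20.5% of that of Dll1. Those of Nrarp and Hes5 had 15 to 31 and 12 to 27 counts per library, beside 3884 to 4412 for Nrarp and 8871 to 10121 for Hes5, and the sources used here do not say whether reads were counted by strand.

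**Figure D3:**
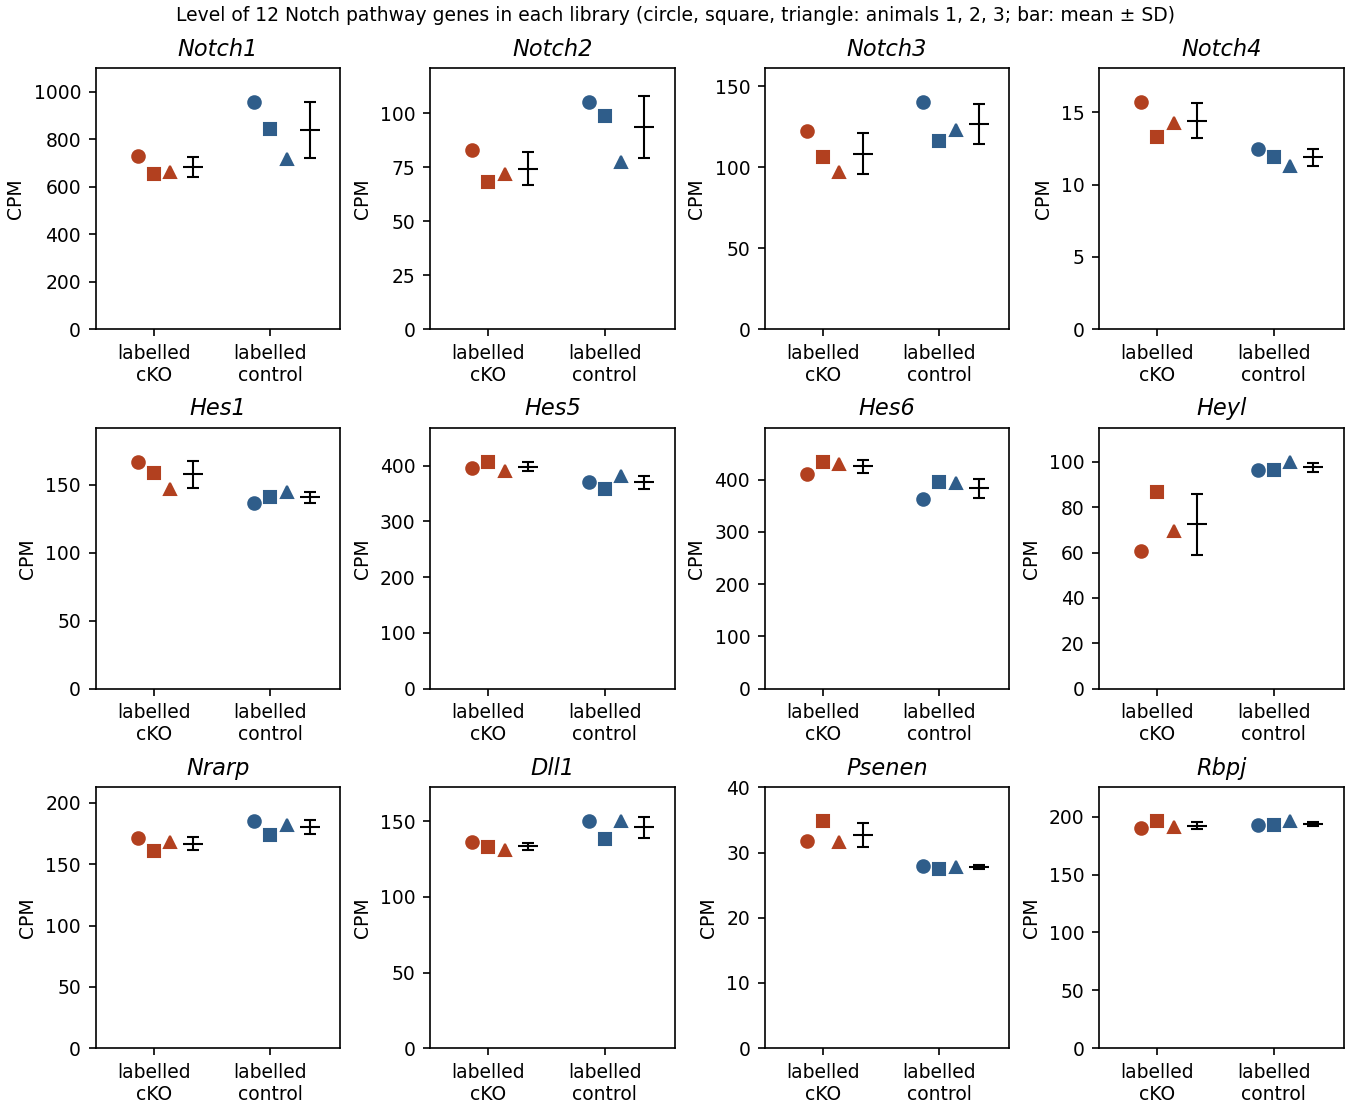
CPM of 12 genes in each library on linear axes from 0, with cKO-labelled libraries on the left and control-labelled on the right; symbols are animals and the bar is the mean ± SD of 3. Hes1, Hes5, Hes6, Notch4 and Psenen separate upwards and Heyl, Nrarp and Dll1 downwards, Notch1 to Notch3 overlap, and Rbpj is level at 190 to 196 CPM.

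The DNA before the start sites of Hes5 and Nrarp, which are both known targets, is shown because Notch acts on its targets through Rbpj. The motif GTGGGAA, bound by Rbpj, was searched on both strands in the 250 bases before each RefSeq start (GRCm38.p6), and 5.42% of 32851 such windows held it. The 30 members found in the RefSeq table have 39 windows, of which 4 (10.3%) held it, before Hes5, Lfng, Hey2 and Psen2. The targets Hes1, Hey1 and Heyl were among the members without a window, so they were not searched. The N-box CACNAG, bound by Hes1, was found on either strand in 13 member windows (33.3%) and in 36.7% of all windows, and no match of one motif overlapped a match of the other before a member. Hes5 is shown over chr4:154960673-154960922 (plus strand), with both GTGGGAA matches, in either orientation, in capitals.
Hes5: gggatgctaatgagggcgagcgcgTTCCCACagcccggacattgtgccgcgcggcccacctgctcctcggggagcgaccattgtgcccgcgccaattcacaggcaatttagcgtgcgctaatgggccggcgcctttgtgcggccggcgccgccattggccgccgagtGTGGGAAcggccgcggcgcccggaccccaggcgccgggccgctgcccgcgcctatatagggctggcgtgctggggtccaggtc
Nrarp is shown over chr2:25180508-25180757 (plus strand), which held no GTGGGAA, with its N-boxes in capitals.
Nrarp: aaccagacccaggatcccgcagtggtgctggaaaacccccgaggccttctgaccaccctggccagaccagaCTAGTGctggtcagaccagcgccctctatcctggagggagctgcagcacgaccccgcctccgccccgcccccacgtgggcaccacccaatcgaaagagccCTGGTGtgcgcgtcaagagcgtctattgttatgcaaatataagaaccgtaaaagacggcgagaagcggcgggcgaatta
Short stretches around the GTGGGAA match (capitals) follow for Lfng (chr5:140607215-140607255, plus strand) and Hey2 (chr10:30842967-30843007, minus strand).
Lfng: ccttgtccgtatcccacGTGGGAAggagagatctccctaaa
Hey2: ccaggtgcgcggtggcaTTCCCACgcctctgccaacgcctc
A match in these letters is a description of the sequence. Binding was not measured, and a link between these matches and the fold changes was not tested.

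The enzymes that free the Notch intracellular part had log2 fold changes of -0.10 to 0.24. The groups were apart for 3 of the 6, all higher, against 20.1% of all genes apart and 10.8% apart in that direction. Psenen, the smallest gamma-secretase subunit (chromosome 7, 30561863 to 30563627, minus strand), had 31.7, 34.8 and 31.6 CPM in cKO-labelled libraries, against 28.0, 27.5 and 27.8 CPM in control-labelled ones. The control-labelled values lie within a narrow band below all cKO-labelled ones. The log2 fold change of 0.24 (95% interval 0.09 to 0.38) came with the lowest edgeR adjusted p of the members, 0.0888. Exons of U2af1l4 on the opposite strand share 9.3% of its exon length. Psen2, a catalytic subunit, had 15.7, 14.5 and 15.2 CPM in cKO-labelled libraries, against 13.5, 14.3 and 14.2 CPM in control-labelled ones (log2 fold change 0.11, edgeR adjusted p 0.554). Aph1a, a scaffold subunit, had 53.1, 51.3 and 50.6 CPM in cKO-labelled libraries, against 48.2, 47.7 and 49.3 CPM in control-labelled ones (log2 fold change 0.09, edgeR adjusted p 0.406). Car14 on the opposite strand, with 478 to 653 counts per library beside 1152 to 1356 for Aph1a, covers 12.9% of its exon length. These 3 gamma-secretase genes were higher in every cKO-labelled library, and the groups overlapped for Ncstn, which recognises the substrate, at -0.01. Adam10, the main protease of the first cleavage, was at 0.03, and Adam17 at -0.10.

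In the nuclear complex, Rbpj, the DNA-binding partner, was close between the groups. It had 190, 196 and 191 CPM in cKO-labelled libraries, against 193, 193 and 196 CPM in control-labelled ones, and its log2 fold change of -0.01 had a 95% interval of -0.11 to 0.09. The Mastermind-like coactivators Maml1, Maml2 and Maml3 were at -0.12, -0.16 and -0.04, with edgeR adjusted p of 0.256, 0.307 and 0.770 and overlapping groups.

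The modifiers of receptors and ligands were also close between the groups. Of the Fringe glycosyltransferases, which set which ligand a receptor prefers, Mfng was at 0.12 (edgeR adjusted p 0.272), Lfng at -0.03 (0.848) and Rfng at 0.04 (0.834). Mib1, the ubiquitin ligase that lets ligands signal, had 249, 235 and 235 CPM in cKO-labelled libraries, against 269, 253 and 256 CPM in control-labelled ones. All 3 cKO-labelled values lie below the control-labelled ones (log2 fold change -0.11, edgeR adjusted p 0.277), while its relative Mib2 was at 0.02. The Deltex genes Dtx1 to Dtx4 ran from -0.08 to 0.04, and the Notch inhibitors Numb and Numbl were at 0.00 and -0.02.

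A second list of 45 further Notch pathway genes, of which 41 were tested, gave no edgeR call. At an unadjusted edgeR p under 0.05, 1 gene was higher and 8 were lower (9 of 41, or 22.0%), against 7.83% and 8.64% of all genes, and the median log2 fold change was -0.027. DESeq2, with 9.61% of genes called, called 5 of them, namely Spen, Ncor1, Ep300, Crebbp and Snw1, which were named after their values were seen, and limma-voom called none. Among the most abundant were Nedd4 (1953 CPM in cKO-labelled and 2034 CPM in control-labelled libraries), Ctbp1 (435 CPM in cKO-labelled and 424 CPM in control-labelled libraries) and Ncor1 (372 CPM in cKO-labelled and 416 CPM in control-labelled libraries). Spen, a corepressor partner of Rbpj, was at 244 CPM in cKO-labelled and 307 CPM in control-labelled libraries (log2 fold change -0.33, edgeR adjusted p 0.0809). In the authors' deposited table, 4 of the 26 genes of this list with an adjusted p lie under 0.05 (15.4%, against 8.97% of all genes with one). They are Spen (adjusted p 2.19e-06), Ncor1, Ep300 and Crebbp, all with positive log2 fold changes there. Their summed exon lengths are 14089, 12811, 14273 and 13540 bases. Over all genes above 5367 bases, the median log2 fold change from the counts was -0.049. The part of exon length in the values of these genes was not tested.

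Log2 fold change fell with exon length among the members, as it did across all genes tested. Spearman's rho between log2 fold change and summed exon length was -0.52 over the 37 members and -0.272 over all genes tested, which share the same 6 libraries. Genes were divided by length into 3 classes of near-equal size. Among members of the short class, up to 2794 bases, 5 had positive and 3 negative values, and in the long class, above 5367 bases, 2 had positive and 12 negative values. Medians in the short class were 0.072 for the 8 members and 0.063 for all genes, and in the long class -0.106 for the 14 members and -0.049 for all genes. After a correction for exon length within every library, Notch1 was at -0.19, Notch2 at -0.26 and Notch3 at -0.18. In the same fit Hes1 was at 0.10, Hes5 at 0.02, Hes6 at 0.08 and Psenen at 0.15, all nearer to 0 than before. Heyl was at -0.43 in both fits, Nrarp at -0.16 and Notch4 at 0.33 lay farther from 0 than before, and no member passed (edgeR adjusted p of at least 0.122).

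**Figure D4:**
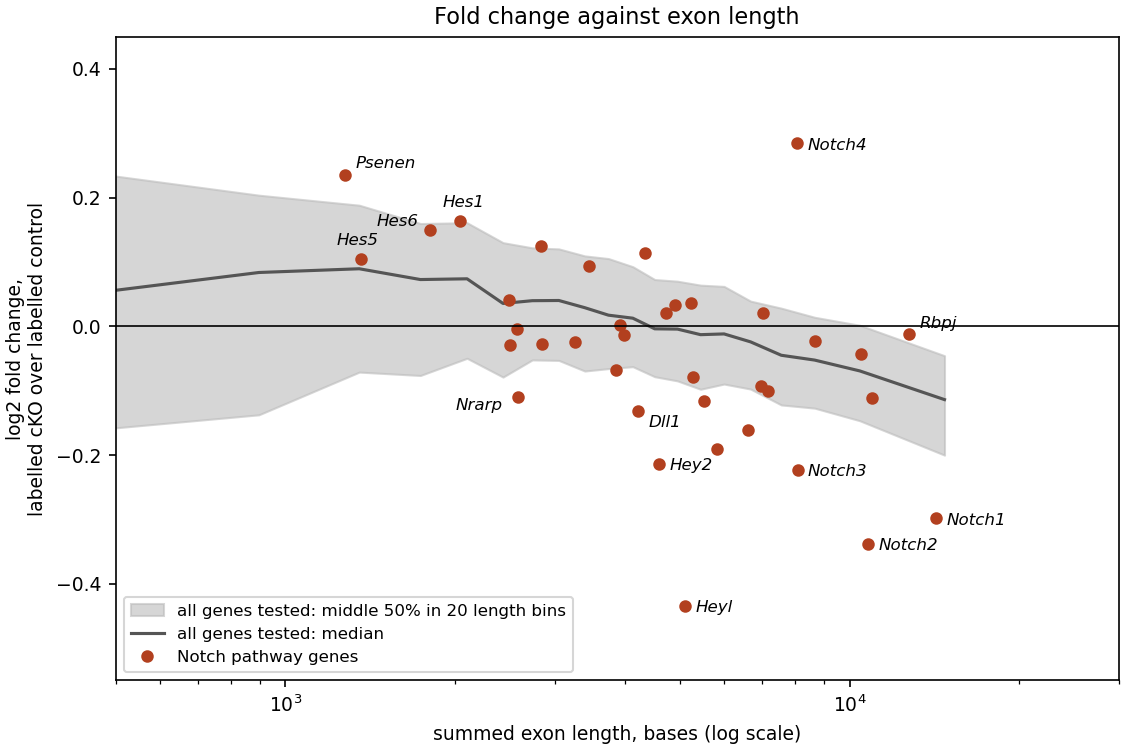
Log2 fold change (cKO-labelled over control-labelled) against summed exon length on a log axis, with the 37 members as points and all genes tested as a grey band (middle 50%) and line (median). The line falls with length, short members such as Psenen and Hes6 lie above 0 and Notch1 to Notch3 below it, and Notch4 and Heyl lie far from the band.

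For 35 of the 37 members the log2 fold change in the authors' deposited table, named cKO against control, has the other sign from the counts as labelled, Hey1 and Numb being the exceptions. A DESeq2 fit to the counts, with sex as a covariate and the labelled sexes exchanged between the groups, differed from the sign-reversed values of the authors' deposited table by at most 0.0013 over the 37 members. An adjusted p is listed for 33 members in the authors' deposited table, and 2 (6.06%) lie under 0.05, against 8.97% of the 7593 genes with one (5.99% higher and 2.98% lower). They are Notch3, listed at 0.30 (adjusted p 0.00109) in the authors' deposited table, and Hes6, listed there at -0.17 (adjusted p 0.0162). Notch1 stands at 0.35 (adjusted p 0.0507) and Heyl at 0.44 (adjusted p 0.111) in the authors' deposited table.

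**Figure D5:**
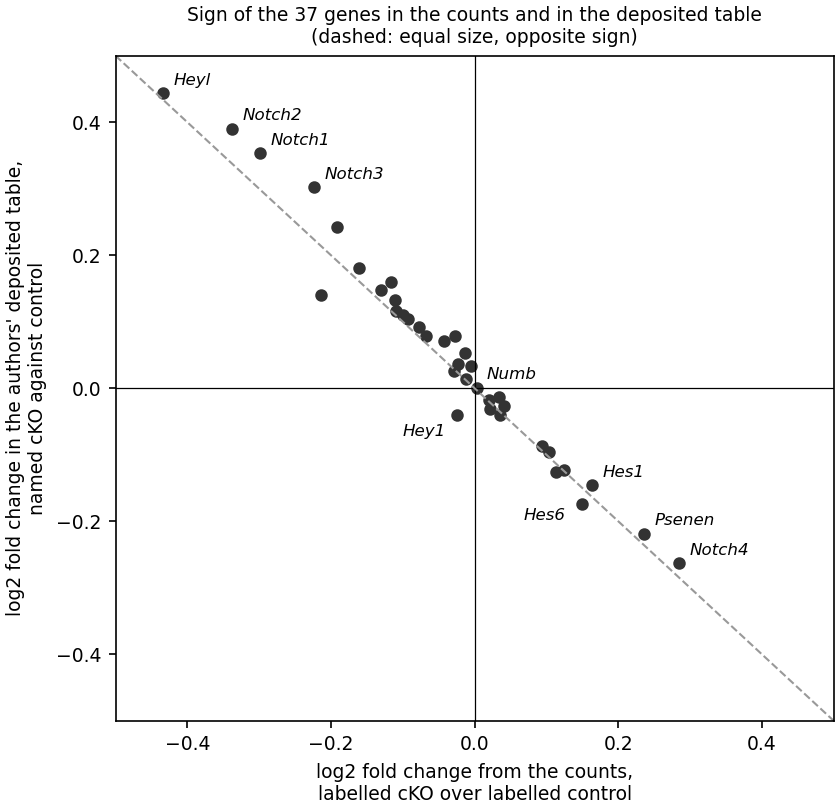
Log2 fold change in the authors' deposited table (vertical) against that from the counts as labelled (horizontal), a point for each of the 37 genes; the dashed line marks equal size and opposite sign. The points follow the dashed line from Heyl, at -0.43 in the counts and 0.44 in the deposited table, to Notch4, at 0.28 and -0.26.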

How the data were processed

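The submitters' processing notes name the mm10 build and, with no role or order, DESeq2 1.32.0, featureCounts 1.5.1, STAR 2.7.6a and cutadapt 2.8. Their settings, and whether strand was used, were not found in the sources used here. The labels' protocols describe rRNA depletion and a directional kit. The authors deposited unnormalized counts per gene. The authors' deposited comparison holds a mean normalized signal, log2 fold changes with standard errors, a test score and p-values.

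Names came from the deposited comparison, and positions and exon lengths from GENCODE M21. Genes passing filterByExpr were fitted with edgeR 4.0.16 in R 4.3.3 (TMM, genotype alone, robust quasi-likelihood, Benjamini-Hochberg over 17275 genes, threshold 0.05). Fold changes are cKO-labelled over control-labelled, n = 3 each, and intervals are 95%. Standard errors were derived from the F statistic. The fit was also run on counts simulated with known fold changes, using its own estimates of spread. How many small changes it recovered is not given here. Within groups, the chi-square of each library pair's counts was 7.39 to 12.46 times its degrees of freedom, beyond sampling noise.

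Alternatives were other normalizations and filters, no robust estimation, DESeq2 1.42.0, limma-voom (limma 3.58.1), sex covariates, a replicate block, removal of the exon length trend (lowess span 0.3) and leaving libraries out. Exchanged sex as a covariate was added after seeing the data. The members and lists were chosen with earlier results of these data known. All 37 members are named. Of the second list, genes past the threshold and the most abundant are named, and some items are not reported here. A mismatch of sex-linked genes with the labels led to the fit without library 2 of both groups.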

Additional observations from a re-analysis of the deposited data

How the results depend on the processing

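No Notch member passed in the fit as reported, and 2 passed with no filter on low counts (Notch1 and Notch3), 2 with DESeq2, 1 with labelled sex as a covariate (Notch2), 2 with the exchanged sex as a covariate (Notch1 and Notch3), 3 with DESeq2 and the exchanged sex (Notch1, Notch3 and Hes6), 1 without library 2 of both groups (Heyl), and 0 to 2 with a library left out. In the same order the second list had 4, 5, 1, 5, 4, 0 and 0 to 5 calls. Over all genes, 135 of 17275 tested passed as reported. With no filter it was 742 of 30016, and with DESeq2 566 of the 5887 with an adjusted p. Labelled sex gave 113, the exchanged sex 746 and DESeq2 with the exchanged sex 725, each of 17275 tested. Without library 2 of both groups 9 of 17426 passed, and with a library left out 19 of 17694 to 778 of 17670. The 1 CPM filter gave 83 of 14837 and removal of the length trend 38 of 17251. Without robust estimation 10 of 17275 passed, and with limma-voom 13 of 17275. The deviations of same-numbered animals correlated at 0.085, -0.052 and 0.199, and not every library correlated best with its own number. With 3 libraries a group, these correlations cannot show whether the animals were paired. With the replicate block 1065 of 17275 genes, 4 of the 37 members (Notch1, Notch3, Hes6 and Psenen) and 7 genes of the second list passed. The members' median ran from -0.041 to -0.004 with a library left out. Members with groups apart numbered 17 without library 2 of both groups and 13 to 19 with a library left out, where fewer libraries make separation easier. The share of all genes apart in these smaller sets was not computed. These counts therefore cannot be read as a result about the members.

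Of 703 alternative values of single members, 653 kept direction and side of the threshold, 18 came to pass and 32 changed sign, all of these for members near 0. A value without an adjusted p, as for Psenen in DESeq2, was counted as not passing. With labelled sex Dtx3 was 0.014 and Ncstn 0.007. With the length trend removed Rfng was -0.009, Rbpj 0.081, Maml3 0.03, Numb -0.016 and Numbl 0.03. With the exchanged sex Hey1 was 0.042 (DESeq2 0.039) and Numb -0.002 (DESeq2), and without library 2 of both groups Hey1 was 0.058 and Numb -0.008. With a library left out the ranges were -0.072 to 0.033 for Dll3, -0.129 to 0.038 for Hey1, -0.018 to 0.064 for Dtx2, -0.043 to 0.031 for Dtx3, -0.087 to 0.008 for Lfng, -0.004 to 0.071 for Rfng, -0.111 to 0.018 for Maml3, -0.001 to 0.076 for Adam10, -0.059 to 0.048 for Ncstn, -0.019 to 0.02 for Numb, -0.061 to 0.01 for Numbl and -0.027 to 0.08 for Mib2. The cause of these moves was not tested. With 3 animals a group, the members' standard errors had a median of 0.056 on the log2 scale, which limits the differences that can be shown.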

Other observations

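The highest and lowest of the 6 values of a member were not spread evenly over the libraries. Control-labelled library 1 held the highest value for 13 of the 37 members (35.1%, against 22.3% of all genes tested), among them Notch1, Notch2, Notch3, Jag1 and Jag2. Control-labelled library 2 held the highest value for none of them (13.3% of all genes), and cKO-labelled library 3 for 2 (5.41%, against 16.2%). These shares describe the same libraries as the fold changes.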
